A study of Danio rerio with 9 samples.

Results

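The comparison set the heart tube of zebrafish larvae against their dorsal pericardium, and it used 5 of the 9 RNA-seq libraries of the series: 3 heart tube libraries and 2 pericardium libraries, chosen by their tissue label alone. All larvae were of strain AB, were 60 hours post fertilisation (hpf) old and carried the genotype epi:eGFP;myl7:mRFP, so both tissues bore the same pair of reporters. Each library came from at least 10 organs dissected by hand with needles and pooled, and its RNA was copied and amplified into cDNA with a low-input kit. The remaining 4 libraries, from the proepicardium, entered the gene filter, the scaling and the estimate of the spread between libraries. With only the 5 compared libraries, 149 of the genes called below were not tested. No source used here says whether libraries of a tissue came from separate clutches or days, so every p-value below measures the spread between these pools, and with 2 pericardium libraries that spread rests on few samples.

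The heart tube at this stage is a beating organ of atrial and ventricular myocardium lined by endocardium, with blood in its lumen and hyaluronan-rich cardiac jelly between its layers. The pericardium is the thin wall of the cavity around it; its inner face is a mesothelium, and the larval epidermis with its keratinocytes, mucous cells and ionocytes lies close to it. Cardiomyocytes are known for striated myofibrils, calcium cycling through the sarcoplasmic reticulum and dense mitochondria, whereas surface epithelia are known for keratin filaments, tight junctions and a collagenous basement membrane. In pooled tissue, fewer cells of a type and less RNA per cell cannot be told apart, and this holds for each difference given here.

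The tissue labels were first checked against marker genes. MYL7, the atrial and ventricular regulatory light chain whose promoter drives the red reporter, stood at 21525, 19851 and 27963 CPM in the heart tube libraries and 19.7 and 6.34 CPM in the pericardium libraries, where CPM is the gene's share of the library's counts in parts per 1e+06 after TMM scaling (trimmed mean of M-values). In a deposited row named mCherry, the counts were 3938, 4042 and 3059 for the heart tube and 1 and 0 for the pericardium. The labels name mRFP, and no source used here ties it to that row. The mesothelial factor WT1 had too few counts to be tested, and its paralog wt1b did not pass (edgeR adjusted p = 0.0957). Both were also low in the proepicardium libraries, at 0.575 and 1.34 CPM on average. The mesothelial identity of the pericardium libraries was therefore not shown by these genes, and their low counts cannot decide it. Keratin counts were highest in library 1 and pigment cell counts in library 3 among the heart tube libraries, and those values are given with the lists they belong to. Library totals were 12461469 to 19401502 counts. Mitochondrially encoded genes took 13.4 to 19.6% of counts in the heart tube and 6.85 to 8.23% in the pericardium. Across genes, which are not independent replicates, log2 CPM correlated at 0.887 to 0.939 between heart tube libraries, 0.960 between the pericardium libraries and 0.614 to 0.684 between tissues.

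The tissues differed in a large share of the transcriptome. Of 17003 genes, 4613 (27.1%) passed edgeR's quasi-likelihood test at a Benjamini-Hochberg adjusted p below 0.05: 1871 (11%) were higher in the heart tube and 2742 (16.1%) in the pericardium. These percentages are the background against which each gene list below is read. The lists were chosen with earlier results of these data known, so their shares describe these libraries and are not independent evidence. The median log2 fold change over all genes tested was -0.09. The libraries of the tissues did not overlap for 25.2% of tested genes with the heart tube above and 32.9% with the pericardium above. Among called genes this held for 1867 in the heart tube and 2742 in the pericardium. Non-overlap given below for a called gene therefore describes its values and adds no support to the call. Of the genes higher in the pericardium, 698 had at most 3 counts in each heart tube library, and of those higher in the heart tube, 203 had at most 3 counts in each pericardium library. The genes called higher in the heart tube took 32.2, 33.7 and 30.7% of gene counts in the heart tube libraries and 4.70 and 4.58% in the pericardium libraries. Those called higher in the pericardium took 43.5 and 44.4% of the pericardium libraries and 6.66, 6.21 and 5.53% of the heart tube libraries. The counts depended on having both pericardium libraries. In what follows, without either pericardium library means with one or the other left out, one at a time. Without the first, 888 genes were called in the heart tube and 1428 in the pericardium; without the second, 754 and 1483.

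Values of a gene are given in the order heart tube libraries 1, 2 and 3, then pericardium libraries 1 and 2. A ± after a mean is the SD (n = 3 heart tube, n = 2 pericardium), and a ± after a log2 fold change (heart tube minus pericardium) is its standard error from the edgeR fit, whose adjusted p is given throughout. Where several zebrafish genes share a symbol in the name table, the Ensembl identifier follows the symbol. Where such copies are close in sequence, their reads may have been divided between them by the authors' counting. The sequences of the copies were not compared here.

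**Figure D1:**
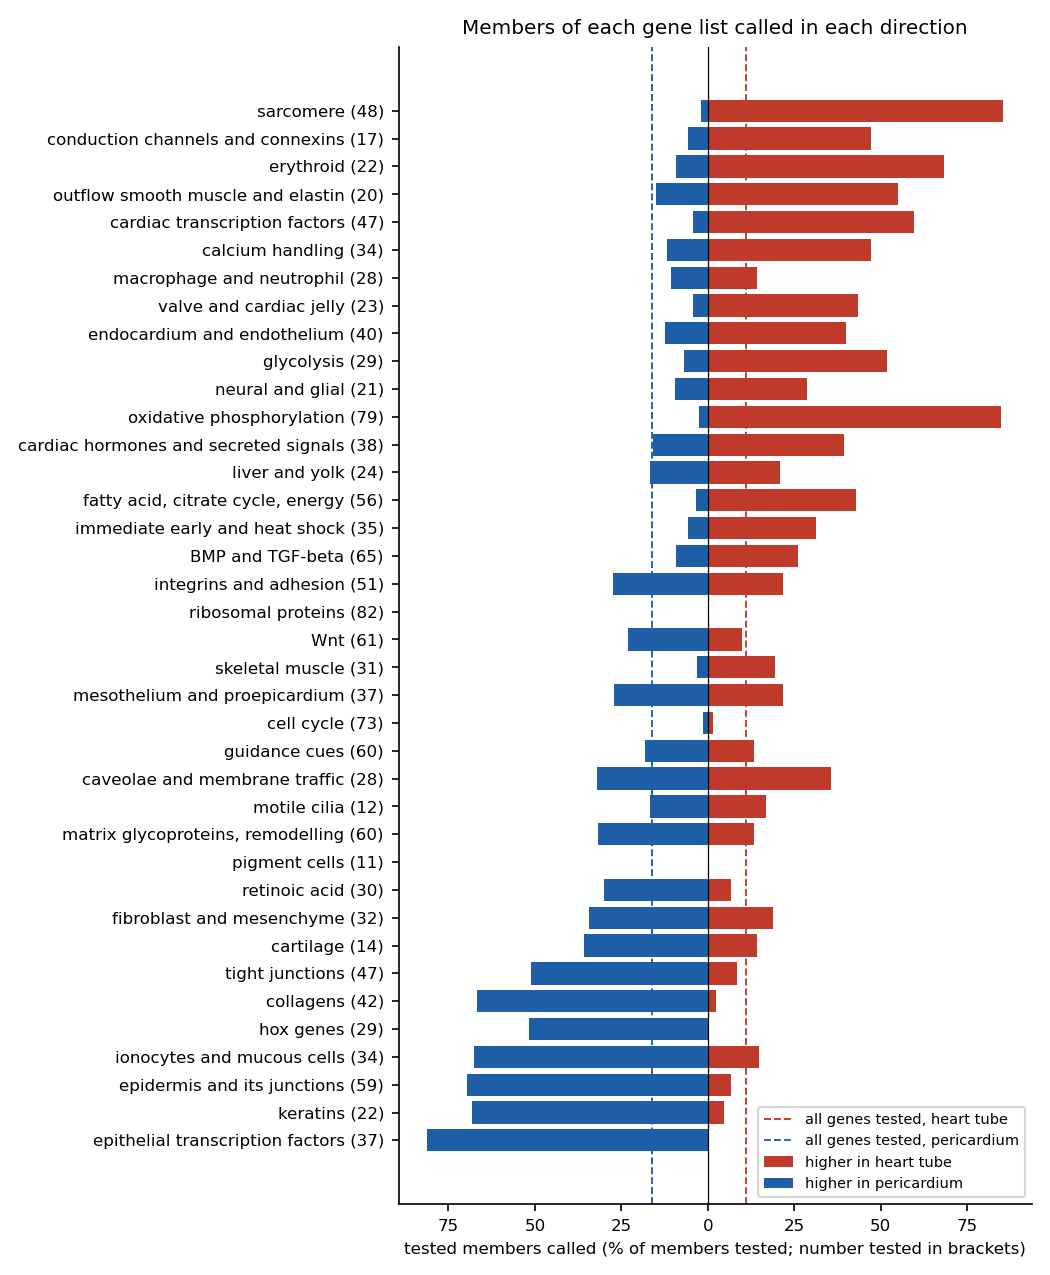
Percent of the tested members of each gene list called higher in the heart tube (bars to the right) and higher in the pericardium (bars to the left), with dashed lines at the percentages of all tested genes, 11% and 16.1%. Sarcomere and oxidative phosphorylation lists lie far to the right, and the epithelial transcription factor and epidermis lists far to the left.

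The contractile apparatus stood almost wholly on the heart side. Of 48 tested members of the sarcomere list, 41 were higher in the heart tube and 1 in the pericardium, with a median log2 fold change of 6.32; the list took 7.09, 8.09 and 6.85% of heart tube counts and 0.0634 and 0.0403% of pericardium counts. MYL7 differed by 10.79 ± 0.97 on the log2 scale (edgeR adjusted p = 4.9e-05). cmlc1, an essential light chain of cardiac myosin, measured 10575, 12854 and 10902 CPM in the heart tube libraries and 10.6 and 3.99 CPM in the pericardium libraries. The lowest heart tube library exceeded the highest pericardium library for both light chains by a wide gap. Among thin filament proteins, TNNI1 (ENSDARG00000052708), an inhibitory troponin, measured 8535, 6906 and 7718 CPM in the heart tube libraries and 8.57 and 8.25 CPM in the pericardium libraries. actc1a, an alpha-actin of heart muscle, stood at 3969.7, 6063 and 7359.7 CPM in the heart tube libraries and 35.6 and 13.6 CPM in the pericardium libraries. No library of either tissue fell into the range of the other for these genes.

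Other parts of the myofibril followed the same direction. Cardiac troponin T (TNNT2, ENSDARG00000020610) had a mean of 3383 ± 715 against 6.097 ± 4.202 CPM, calcium-binding troponin C (tnnc1a) 1481 ± 125 against 1.86 ± 1.41 CPM, and the thick filament regulator MYBPC3 970.1 ± 282 against 3.18 ± 2.16 CPM. The Z-disc was represented by CSRP3, a muscle LIM protein (log2 fold change 8.59 ± 0.87; edgeR adjusted p = 7.78e-05), by actn2b, an alpha-actinin (8.42 ± 1.05; edgeR adjusted p = 0.000284), and by FHL2 (ENSDARG00000042018), a LIM protein of the sarcomere (7.42 ± 0.69; edgeR adjusted p = 4.96e-05). SMPX, a small muscle protein, measured 561, 546 and 852 CPM in the heart tube libraries and 1.002 and 0.695 CPM in the pericardium libraries, and its tissues did not overlap. The small heat-shock proteins of muscle stood with them: HSPB7 averaged 1007 ± 358 against 2.05 ± 0.437 CPM, and HSPB1, which protects actin filaments, 3640.1 ± 208 against 35.1 ± 5.89 CPM. mylk2, a kinase that phosphorylates myosin light chains, measured 149, 108 and 100.3 CPM in the heart tube libraries and 0.952 and 0.347 CPM in the pericardium libraries, so that each heart tube library held over 100 CPM and both pericardium libraries fewer than 1. The single member in the other direction was tpm1, a tropomyosin (31.5, 19.5 and 17.3 against 53.4 and 65.99 CPM; -1.39 ± 0.37; edgeR adjusted p = 0.0163); without heart tube library 1, 2 members were called on that side, and without heart tube library 2 or 3 or either pericardium library none.

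Most of the calcium cycling genes that passed were higher in the heart tube. Of 34 tested members of the calcium handling list, 16 (47.1%) were higher in the heart tube and 4 (11.8%) in the pericardium (median 2.13). The shares of all genes were 11% and 16.1%. atp2a2a, the calcium pump that refills the sarcoplasmic reticulum, measured 474, 573 and 542 CPM in the heart tube libraries and 6.01 and 7.12 CPM in the pericardium libraries (6.33 ± 0.48; edgeR adjusted p = 2.8e-05). pln1, a phospholamban and so a brake on that pump, stood at 2492, 1745 and 2342 CPM in the heart tube libraries and 5.21 and 2.87 CPM in the pericardium libraries. Both were separated by more than 10-fold from every pericardium library. CAMK2A, a calcium-dependent kinase, measured 59.4, 45.7 and 43.7 CPM in the heart tube libraries and 0.551 and 0.434 CPM in the pericardium libraries. The release channel RYR2 averaged 253 ± 46.3 against 1.56 ± 1.47 CPM, the store protein calsequestrin (CASQ2) 522 ± 54.3 against 5.09 ± 2.16 CPM, the sodium-calcium exchanger SLC8A1 (ENSDARG00000013422) 157 ± 56.4 against 0.324 ± 0.03304 CPM, and the T-type channel CACNA1G 42.9 ± 19.4 against 0.543 ± 0.154 CPM. On the pericardium side, camk2d1, another CaM kinase, averaged 3.16 ± 4.96 against 145 ± 0.485 CPM, whereas its sister gene camk2d2 averaged 11.3 ± 1.23 against 0.119 ± 0.0449 CPM. The others there were hrc, a histidine-rich calcium-binding protein (31.6 ± 32.01 against 278 ± 116 CPM), the store sensor STIM1 (ENSDARG00000060723; 5.61 ± 2.11 against 25.2 ± 6.56 CPM) and the inositol trisphosphate receptor ITPR1 (ENSDARG00000074149; 1.12 ± 0.902 against 6.25 ± 2.82 CPM). Without heart tube library 1 the pericardium count was 6, and without pericardium library 1 or 2 it was 2 or 0.

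Several channel and connexin genes of cardiac conduction were higher in the heart tube. Of 31 identifiers on the list, 17 had enough counts to be tested; 8 were higher in the heart tube and 1 in the pericardium. kcnh6a, which in zebrafish carries the rapid repolarising potassium current, measured 200.1, 194 and 145 CPM in the heart tube libraries and 0.952 and 0.2605 CPM in the pericardium libraries. gjd6, a connexin, stood at 103, 98.4 and 121 CPM in the heart tube libraries and 0.1002 and 0 CPM in the pericardium libraries. Each of these genes was near 0 in both pericardium libraries. The Popeye proteins, cyclic AMP binding proteins of striated muscle membranes, were higher too: BVES averaged 463 ± 56.8 against 4.05 ± 0.574 CPM, POPDC2 206 ± 141 against 0.276 ± 0.3897 CPM and POPDC3 37.4 ± 3.91 against 0.898 ± 0.288 CPM. The sodium channel subunit SCN4B (ENSDARG00000099031) averaged 60.1 ± 9.08 against 0.336 ± 0.262 CPM. KCNJ2 (ENSDARG00000019418), an inward rectifier, was the member on the other side (0.2698 ± 0.247 against 4.31 ± 0.699 CPM; edgeR adjusted p = 0.0351), a call that was lost without heart tube library 1 or 3 or either pericardium library.

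**Figure D2:**
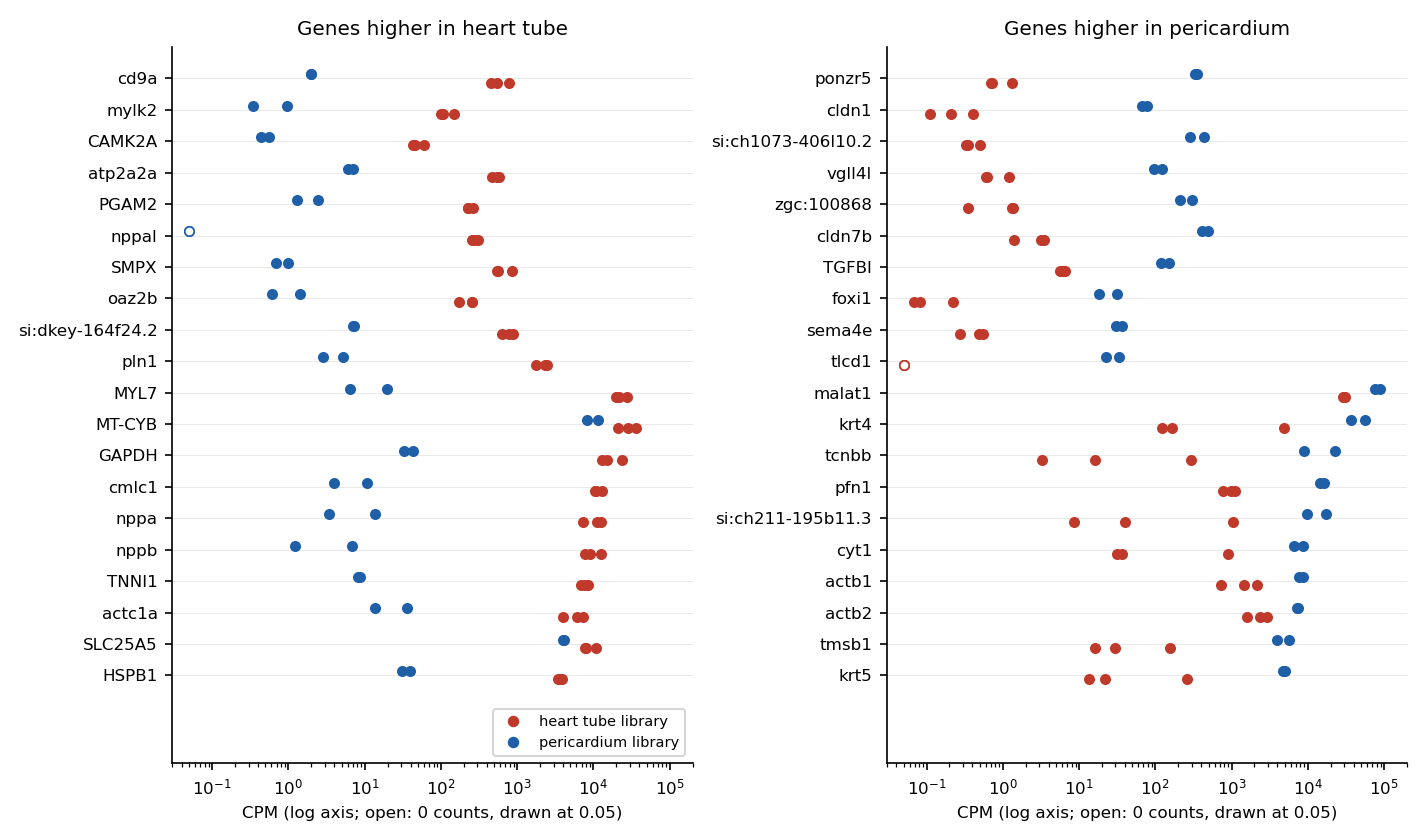
CPM of 40 genes in each of the 5 libraries on a log axis, the 10 smallest p-values and the 10 largest CPM differences in each direction; open symbols are libraries with 0 counts, drawn at 0.05 CPM. Heart tube and pericardium points of a gene do not overlap. The first heart tube library lies far above the other 2 for krt4, krt5, cyt1, tcnbb, tmsb1 and si:ch211-195b11.3.

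The natriuretic peptides, hormones that the heart secretes, were among the genes with the largest differences in CPM. nppa measured 7205, 11151 and 12446 CPM in the heart tube libraries and 13.6 and 3.39 CPM in the pericardium libraries (10.23 ± 0.89; edgeR adjusted p = 4.88e-05). nppb measured 7822, 12554 and 8986 CPM in the heart tube libraries and 6.86 and 1.22 CPM in the pericardium libraries (11.22 ± 0.98; edgeR adjusted p = 4.88e-05). Another natriuretic-peptide gene, nppal, stood at 257, 305 and 273 CPM in the heart tube libraries and 0 and 0 CPM in the pericardium libraries. With both pericardium libraries at 0 counts, nppal was at least 1350.0-fold higher in the heart tube, taking 3 counts per library as the floor. Of the whole list of hormones and secreted signals, 38 were tested, and 15 (39.5%) were higher in the heart tube, against 11% of all genes. In the pericardium 6 (15.8%) were higher, near the 16.1% of all genes. Without pericardium library 2 fewer were called in the heart tube. Ligands on the heart side included the apelin gene APLN (316 ± 46.1 against 7.45 ± 2.92 CPM), BMP4 (502 ± 134 against 17.7 ± 2.75 CPM), and VEGFA (ENSDARG00000034700), the vascular growth factor (18.01 ± 1.96 against 2.51 ± 1.34 CPM). Receptors there included the muscarinic receptor CHRM2 (ENSDARG00000098612), at 3.42, 8.01 and 5.87 against 0 and 0 CPM, the beta-adrenergic receptor ADRB1 (9.44 ± 7.48 against 0.691 ± 0.127 CPM), the endothelin receptors EDNRA (248 ± 45.5 against 17.1 ± 4.16 CPM) and ednrab (9.71 ± 0.624 against 0.274 ± 0.104 CPM), and the neuregulin receptor ERBB4 (ENSDARG00000090408; 7.36 ± 1.99 against 0.225 ± 0.319 CPM). The other neuregulin receptor on the list that passed, erbb3b, went the other way (0.119 ± 0.142 against 3.897 ± 1.12 CPM). It was joined by 3 copies of the platelet-derived growth factor gene PDGFA, by the peptide hormone gene ADM (ENSDARG00000069027; 0.4001 ± 0.283 against 34.7 ± 0.906 CPM) and by the adrenergic receptor ADRA1D (0.548 ± 0.356 against 6.23 ± 1.38 CPM).

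Of 47 tested transcription factors of heart development, 28 were higher in the heart tube and 2 in the pericardium (median 2.83); without pericardium library 2 the heart count was 17. NKX2-5, the homeobox factor of the cardiac lineage, measured 319.6, 282 and 391 CPM in the heart tube libraries and 1.35 and 1.302 CPM in the pericardium libraries (7.95 ± 0.70; edgeR adjusted p = 4.88e-05). Its relative nkx2.7 averaged 122 ± 23.3 against 14.3 ± 0.335 CPM. All 3 heart tube libraries lay above both pericardium libraries for each. The T-box factors TBX5 (46.1 ± 9.25 against 0.979 ± 0.0331 CPM) and TBX20 (38.7 ± 10.6 against 0.785 ± 0.118 CPM), the zinc-finger factors GATA5 (195 ± 61.8 against 5.74 ± 2.59 CPM) and GATA6 (69.1 ± 13.96 against 1.58 ± 0.0284 CPM), the basic helix-loop-helix factor HAND2 (577 ± 51.2 against 57.6 ± 25.5 CPM) and the Iroquois factor IRX1 (ENSDARG00000101831; 42.6 ± 14.9 against 1.45 ± 0.213 CPM) followed. Transcripts of several were present in the pericardium as well; HAND2 stood at 75.7 and 39.6 CPM in the pericardium libraries and 519, 613 and 600.1 CPM in the heart tube libraries. On the pericardium side was TBX3, a T-box repressor (2.98, 0.138 and 0.896 against 51.4 and 70.7 CPM).

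Mitochondrial energy metabolism was higher in the heart tube by a moderate factor across nearly the whole list. Of 79 tested nuclear-encoded subunits of oxidative phosphorylation, 67 were higher in the heart tube and 2 in the pericardium. Their median log2 fold change was 1.66, far smaller than that of the sarcomere list, and their share of counts was 3.85, 3.61 and 3.15% against 1.07 and 1.15%. The number of calls depended on the pericardium libraries: 29 were called in the heart tube without the first and 41 without the second. NDUFB7, a complex I subunit, measured 523, 416 and 428 CPM in the heart tube libraries and 60.6 and 73.02 CPM in the pericardium libraries (2.77 ± 0.37; edgeR adjusted p = 0.000355). ATP5F1B, the catalytic beta subunit of ATP synthase, measured 907, 1278 and 993 CPM in the heart tube libraries and 287 and 341 CPM in the pericardium libraries. The tissues did not overlap for either gene. The cytochrome oxidase subunit cox7a1, a form of striated muscle, had a larger difference (49.9, 25.8 and 28.9 against 0.301 and 0.521 CPM; 6.43 ± 0.91; edgeR adjusted p = 0.000475). COX4I2, a form of the same enzyme's subunit IV, was higher in the pericardium (6.35 ± 1.96 against 62.1 ± 33.2 CPM), as was the COX7A2 copy ENSDARG00000110700 (18.6 ± 1.25 against 52.04 ± 7.17 CPM). The mitochondrially encoded MT-CYB stood at 28502, 21241 and 36558 CPM in the heart tube libraries and 8203 and 11352 CPM in the pericardium libraries, a call lost when any 1 of the 5 libraries was left out.

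Proteins that build the mitochondrion went with it. Of 47 tested large-subunit mitochondrial ribosomal genes (mrpl), 33 were higher in the heart tube and 0 in the pericardium, and of 28 small-subunit genes (mrps) 15 and 0. Of 13 tested timm genes, which import proteins through the inner membrane, 6 and 0 passed. These counts fell to 6 and 1 (mrpl and mrps) without pericardium library 1 and to 10 and 1 without library 2; timm fell to 1 and 3. The cytosolic ribosomal proteins did not share the shift: none of 82 tested rpl and rps genes that encode ribosomal proteins, ribosomal S6 kinases left out, passed in edgeR, their median log2 fold change was 0.11, and they took 5.71 to 6.82% of counts in the heart tube and 5.97 to 6.24% in the pericardium.

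Fuel enzymes differed by isoform. Of 29 tested glycolysis genes, 15 were higher in the heart tube and 2 in the pericardium, and the list took 1.84, 1.79 and 2.5% of counts against 0.183 and 0.172%. GAPDH, the dehydrogenase of the middle of the pathway, measured 15161, 12815 and 23988 CPM in the heart tube libraries and 33.3 and 42.5 CPM in the pericardium libraries (8.84 ± 0.95; edgeR adjusted p = 0.000111). Its homolog GAPDHS ran in the opposite direction, at 82.96, 203 and 209 against 527 and 620.1 CPM (-1.80 ± 0.48; edgeR adjusted p = 0.0155). The libraries of the tissues did not overlap for either gene, though the GAPDHS call was lost without either pericardium library. PGAM2, the muscle phosphoglycerate mutase, measured 226, 226 and 264 CPM in the heart tube libraries and 2.45 and 1.302 CPM in the pericardium libraries. LDHA, lactate dehydrogenase, averaged 829 ± 51.2 against 38.3 ± 3.26 CPM, and the muscle phosphofructokinase PFKM (ENSDARG00000060797) 28.9 ± 2.703 against 0.0751 ± 0.106 CPM. Among the hexokinases, which start the pathway, HK1 was higher in the heart tube (126 ± 50.6 against 30.2 ± 9.44 CPM) and HK2 in the pericardium (2.003 ± 0.465 against 14.9 ± 7.14 CPM).

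In the list of fatty acid oxidation, citrate cycle and energy transfer, 24 of 56 tested members were higher in the heart tube and 2 in the pericardium. Without pericardium library 1 the heart count was 11, and without library 2 it was 14. Myoglobin (mb), the oxygen store of muscle, measured 145, 73.3 and 23.6 CPM in the heart tube libraries and 0.2004 and 0.0868 CPM in the pericardium libraries. The muscle creatine kinase ckma, which buffers ATP, averaged 1056 ± 137 against 31.8 ± 0.913 CPM, and the citrate cycle enzymes MDH2 and IDH2 averaged 1041 ± 206 against 179 ± 1.54 CPM and 563 ± 20.5 against 123 ± 27.9 CPM. The pericardium held more PDK2 (ENSDARG00000059054), a kinase that switches pyruvate dehydrogenase off (2.92 ± 1.06 against 35.7 ± 15.8 CPM), and more IDH3G, a regulatory subunit of isocitrate dehydrogenase (66.1 ± 8.29 against 366 ± 61.95 CPM). SLC25A5, the ADP and ATP carrier, had one of the 10 largest CPM differences although its ratio was small (1.12 ± 0.38; edgeR adjusted p = 0.0487), and its call was lost when any 1 of the 5 libraries was left out.

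Endocardial and endothelial genes leaned to the heart tube, at 40% of those tested against 11% of all genes. On the pericardium side 12.5% passed, below the 16.1% of all genes. Of 40 tested, 16 were higher in the heart tube and 5 in the pericardium; without pericardium library 2 the heart count was 6. cdh5, the cadherin of endothelial junctions, measured 254, 362 and 228 CPM in the heart tube libraries and 33.9 and 13.6 CPM in the pericardium libraries (3.56 ± 0.58; edgeR adjusted p = 0.00105). The receptor TIE1 averaged 67.8 ± 11.03 against 8.13 ± 5.36 CPM, the vascular growth factor receptors KDR and kdrl 10.7 ± 0.312 against 0.954 ± 0.00231 CPM and 20.2 ± 3.17 against 5.87 ± 2.402 CPM, and the secreted vessel factor EGFL7 89.2 ± 23.6 against 6.53 ± 2.73 CPM. NFATC1, a factor of the endocardium and its valves, averaged 15.8 ± 0.821 against 1.39 ± 1.23 CPM, and the water channel AQP8 57.6 ± 40.3 against 0.162 ± 0.0165 CPM. The scavenger receptor stab1 was higher in the heart tube (13.2 ± 5.44 against 2.48 ± 0.538 CPM), whereas its relative stab2 (1.49 ± 0.702 against 7.45 ± 0.588 CPM), the fenestra gene plvapb (0.319 ± 0.232 against 3.35 ± 0.931 CPM) and the mannose receptor MRC1 (0.146 ± 0.139 against 1.74 ± 0.482 CPM) were higher in the pericardium. The summed list, 0.0900 to 0.137% of counts in the heart tube and 0.183 to 0.243% in the pericardium, was dominated on the pericardium side by the periostin gene POSTN (ENSDARG00000104267), a matrix protein that fibroblasts also make (35.4 ± 24.1 against 1706 ± 38.4 CPM).

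Genes of the cardiac jelly and of the forming valves were higher in the heart tube in 10 of 23 tested cases and in the pericardium in 1; without pericardium library 2 the heart count was 3. HAS2, the enzyme that makes hyaluronan, measured 26.8, 45.4 and 51.6 CPM in the heart tube libraries and 1.35 and 0.695 CPM in the pericardium libraries (edgeR adjusted p = 0.00558). The hyaluronan-binding proteoglycan versican (vcana) measured 155, 125 and 86.3 CPM in the heart tube libraries and 1.202 and 2.69 CPM in the pericardium libraries, and the linker of both, hapln1a, averaged 277 ± 34.9 against 41.7 ± 30.2 CPM. The hyaluronan receptor gene cd44a was the one on the other side (0.0368 ± 0.0638 against 1.52 ± 0.307 CPM; edgeR adjusted p = 0.023).

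Of 20 tested genes of outflow smooth muscle, 11 (55%) were higher in the heart tube, against 11% of all genes. In the pericardium 3 (15%) were higher, near the 16.1% of all genes. acta2, smooth muscle actin, measured 73.9, 334 and 488 CPM in the heart tube libraries and 14.9 and 15.8 CPM in the pericardium libraries, and the RNA-binding proteins RBPMS2 (ENSDARG00000045930) and RBPMS2 (ENSDARG00000079578) averaged 678 ± 44.1 against 4.51 ± 1.34 CPM and 1131 ± 98.1 against 7.83 ± 3.09 CPM. Myocardium of early larvae also transcribes several genes on this list, and their cell of origin was not tested. The actin-binding transgelin gene TAGLN differed by copy: ENSDARG00000045408 was higher in the heart tube (18.1 ± 15.6 against 1.37 ± 0.335 CPM) and ENSDARG00000033466 in the pericardium (77.4 ± 51.4 against 492 ± 72.2 CPM). Without pericardium library 1 the heart count was 6, and without library 2 it was 5.

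Red blood cell genes were mostly higher in the heart tube libraries. Of 22 tested erythroid genes, 15 were higher there and 2 in the pericardium, and the list took 0.849, 0.372 and 0.190% of counts against 0.0691 and 0.0649%. The embryonic alpha-globin hbae3 averaged 2209 ± 1932 against 221 ± 87.3 CPM, and alas2, the first enzyme of haem synthesis in red cells, 92.9 ± 59.8 against 6.82 ± 0.558 CPM. SLC4A1 (ENSDARG00000012881), the band 3 anion exchanger, measured 614, 230.0 and 232 CPM in the heart tube libraries and 27.5 and 32.7 CPM in the pericardium libraries, highest in heart tube library 1. The other SLC4A1 copy, ENSDARG00000024560, was higher in the pericardium, at 2.26, 0.483 and 0.0815 against 15.2 and 21.6 CPM. Fewer erythroid genes were called higher in the heart tube without either pericardium library. Of 28 tested macrophage and neutrophil genes, 4 were higher in the heart tube and 3 in the pericardium. These shares, 14.3% and 10.7%, lay near the 11% and 16.1% of all genes. The myeloid factor SPI1 (7.65 ± 2.43 against 1.34 ± 1.15 CPM) was on the first side; rac2, a GTPase of leukocytes (18.7 ± 1.48 against 149 ± 6.91 CPM), and the chemokine receptor CXCR4 (ENSDARG00000041959; 1.697 ± 1.38 against 11.6 ± 10.08 CPM) were on the second. The heart count of that list was 1 without heart tube library 3 and 2 or 0 without pericardium library 1 or 2.

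Some genes known to respond to handling stress also differed. Of 35 tested immediate early and heat shock genes, 11 were higher in the heart tube and 2 in the pericardium, and without pericardium library 2 the heart count was 3. The suppressor of cytokine signalling SOCS3 (ENSDARG00000025428) averaged 80.6 ± 10.5 against 3.39 ± 0.869 CPM, the inducible hsp70l 6.36 ± 3.55 against 0.262 ± 0.125 CPM, and ATF3, a stress-induced factor, 48.4 ± 40.3 against 12.4 ± 1.64 CPM. hsp90aa1.1, a chaperone that muscle myosin needs for folding, averaged 149 ± 70.7 against 13.6 ± 9.63 CPM. HSPB1, described above with the muscle proteins, is counted among the 11. GADD45B (ENSDARG00000027744), a growth arrest gene, was higher in the pericardium (19.9 ± 1.16 against 72.05 ± 2.49 CPM). The remaining 22 members did not pass. They include FOS, JUN, egr1 and DUSP1, whose log2 fold changes were 0.80 ± 0.57, 0.19 ± 0.47, -0.53 ± 0.62 and -0.11 ± 0.45. Their adjusted p-values from edgeR were 0.337, 0.82, 0.588 and 0.891. As a whole the list leaned to the heart tube, with 31.4% of tested members higher there against 11% of all genes. On the pericardium side 5.71% passed, below the 16.1% of all genes, and the list's median log2 fold change was 0.80. The part of dissection in these values was not tested.

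**Figure D3:**
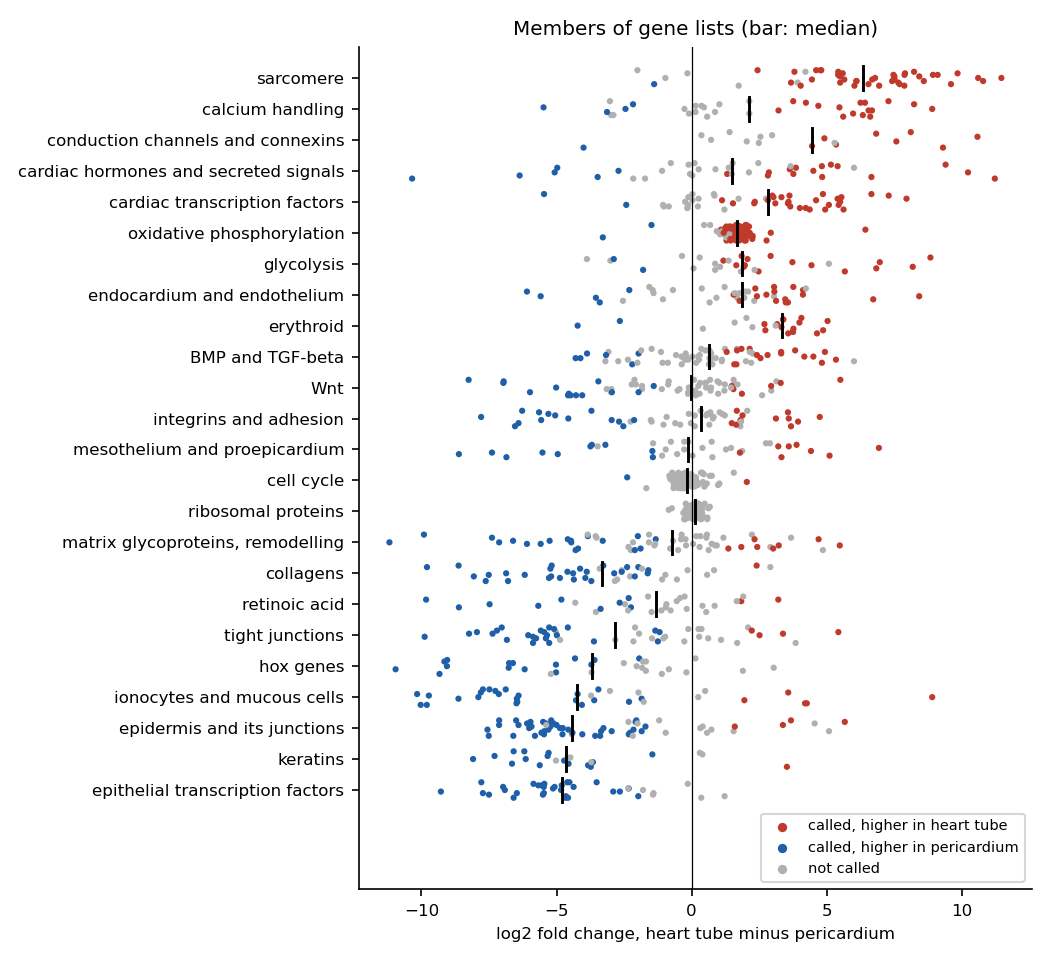
Log2 fold change (heart tube minus pericardium) of every tested member of 24 gene lists, coloured by call, with a bar at each median. The sarcomere members centre on 6.32 and the epithelial transcription factors on -4.81, whereas the cell cycle and ribosomal protein lists have medians of -0.17 and 0.11. Single cell cycle members range from -2.39 to 2.04.

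On the pericardium side stood the genes of epithelia. Of 37 tested epithelial transcription factors, 30 were higher in the pericardium and 0 in the heart tube, with a median log2 fold change of -4.81 (-4.67 when genes at 0 in one tissue were set at their bound). TP63, the master factor of epidermal basal cells, measured 316 and 242 CPM in the pericardium libraries and 8.45, 5.87 and 4.72 CPM in the heart tube libraries (-5.45 ± 0.45; edgeR adjusted p = 3.76e-05). foxi1, a forkhead factor of ionocyte and placode lineages and a member of the ionocyte list, measured 31.5 and 18.4 CPM in the pericardium libraries and 0.221, 0.0691 and 0.0815 CPM in the heart tube libraries. BARX2, a homeobox factor, measured 6.01 and 4.602 CPM in the pericardium libraries and 0, 0 and 0 CPM in the heart tube libraries and was at least 25.8-fold lower in the heart tube. No heart tube library reached the pericardium level for any of them. Further members were DLX3 (1.65 ± 1.25 against 163 ± 0.168 CPM), KLF5 (ENSDARG00000015506; 0.757 ± 0.355 against 36.4 ± 5.85 CPM), grhl3, a grainyhead factor of skin barrier formation (1.18 ± 1.81 against 43.6 ± 0.888 CPM), and ELF3 (0.261 ± 0.256 against 16.5 ± 4.68 CPM). Without either pericardium library 21 members were still called there.

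Keratins, which form the intermediate filaments of epithelial cells, took 7.21 and 8.69% of counts in the pericardium libraries and 0.819, 0.167 and 0.137% in the heart tube libraries. Of 22 tested, 15 were higher in the pericardium, 7 without pericardium library 1 and 8 without library 2. krt4, a type II keratin of the larval skin, measured 36337 and 55699.5 CPM in the pericardium libraries and 4943, 124 and 168 CPM in the heart tube libraries (-4.72 ± 1.42; edgeR adjusted p = 0.0345). cyt1, a type I keratin, measured 6546 and 8775 CPM in the pericardium libraries and 908, 31.08 and 36.66 CPM in the heart tube libraries, and krt5, of the basal layer, 4996 and 4751 CPM in the pericardium libraries and 261, 21.9 and 13.5 CPM in the heart tube libraries. Heart tube library 1 held far more of each than the other 2 heart tube libraries; without it the log2 fold changes were -8.26 for krt4, -7.78 for cyt1 and -8.06 for krt5. Without either pericardium library none of these 3 calls was made, and those of krt4 and cyt1 also failed without any 1 of the proepicardium libraries. The same heart tube library stood out for tcnbb, a vitamin B12 binding protein (8949 and 22932 CPM in the pericardium libraries and 298, 3.25 and 15.97 CPM in the heart tube libraries; -10.66 without it). The part of epidermal RNA in that library was not tested beyond leaving it out. krt94, a type I keratin, was the single keratin higher in the heart tube, at 129.5, 277 and 173 against 17.5 and 15.98 CPM (3.52 ± 0.59; edgeR adjusted p = 0.00133), while krt8, found in simple epithelia including mesothelium, differed by less (421, 639 and 535 against 1682 and 1234 CPM; -1.46 ± 0.40; edgeR adjusted p = 0.0175).

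Other epidermal genes moved with the keratins. Of 59 tested members of the epidermis list, 41 were higher in the pericardium and 4 in the heart tube, and without a pericardium library 33 or 32 were still called. The list took 2.44 and 2.47% of counts in the pericardium and 0.222 to 0.341% in the heart tube. cdh1, the epithelial cadherin, measured 429 and 479 CPM in the pericardium libraries and 60.6, 40.1 and 74.3 CPM in the heart tube libraries. ITGB4, the hemidesmosomal integrin that anchors keratinocytes to the basement membrane, measured 110.1 and 84.7 CPM in the pericardium libraries and 1.49, 1.38 and 0.489 CPM in the heart tube libraries (-6.41 ± 0.58; edgeR adjusted p = 4.9e-05). Neither gene overlapped between tissues. The aquaglyceroporin AQP3 (ENSDARG00000003808) averaged 6.43 ± 1.099 against 902 ± 299 CPM, the surface antigen gene lye 8.28 ± 6.45 against 807 ± 96.7 CPM, the envelope protein envoplakin (evpla) 3.99 ± 4.68 against 253 ± 84.97 CPM, and spint1a and st14a, a protease inhibitor and the protease it restrains, 3.22 ± 2.76 against 295 ± 7.35 CPM and 2.12 ± 1.72 against 139.8 ± 19.3 CPM. The 4 on the heart side included PKP3, a desmosomal plakophilin (66.9 ± 20.2 against 6.43 ± 0.255 CPM), and a copy of the tetraspanin CD151 (ENSDARG00000038288; 164 ± 30.6 against 3.25 ± 1.41 CPM).

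Tight junction genes leaned to the pericardium, at 51.1% of those tested. On the heart side the share was 8.51%, below the 11% of all genes. Of 47 tested, 24 were higher in the pericardium and 4 in the heart tube, with a median of -2.83, or -2.10 with genes at 0 in one tissue at their bound. cldn1 measured 76.95 and 66.8 CPM in the pericardium libraries and 0.1105, 0.207 and 0.407 CPM in the heart tube libraries and cldn7b 486 and 409 CPM in the pericardium libraries and 3.15, 3.52 and 1.38 CPM in the heart tube libraries (-7.37 ± 0.54; edgeR adjusted p = 2.64e-05). Claudins, the strands that seal the space between epithelial cells, were higher in the pericardium in 9 of 19 tested members of the cldn symbol family and in the heart tube in 0. The skin claudins cldni and cldnb averaged 6.65 ± 3.64 against 985 ± 199 CPM and 19.1 ± 26.999 against 1269 ± 86.5 CPM, and the occludin gene oclna averaged 3.85 ± 4.91 against 188 ± 5.59 CPM. The 4 heart-side members were scaffolds and immunoglobulin-type adhesion molecules that other junctions also use: tjp1b (237 ± 44.2 against 41.5 ± 1.103 CPM), TJP1 (123 ± 52.4 against 26.2 ± 2.09 CPM) and the JAM3 copies ENSDARG00000114589 (22.3 ± 2.37 against 0.469 ± 0.541 CPM) and ENSDARG00000061794 (121 ± 41.5 against 11.5 ± 5.15 CPM).

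Cell types scattered through larval skin were represented as well. Of 34 tested genes of ionocytes and mucous cells, 23 were higher in the pericardium and 5 in the heart tube; without pericardium library 1 the first count was 15. The secreted mucin muc5.1 averaged 0.678 ± 0.542 against 264 ± 89.97 CPM, muc5.2 0.281 ± 0.428 against 364 ± 189 CPM and AGR2, an isomerase of mucus-secreting cells, 3.997 ± 3.09 against 901 ± 278 CPM. The ionocyte factors foxi3a and foxi3b averaged 0.142 ± 0.181 against 30.8 ± 10.15 CPM and 0.331 ± 0.574 against 33.3 ± 3.57 CPM, GCM2, a factor of proton-pumping ionocytes, 0.246 ± 0.217 against 21.5 ± 8.84 CPM, and the epithelial calcium channel TRPV6 0.02302 ± 0.0399 against 26.3 ± 23.0003 CPM. Subunits of the sodium pump differed by paralog: ATP1B1 measured 2293, 1774 and 2312 against 114 and 107 CPM for ENSDARG00000013144 and 3.15, 0.207 and 0.326 against 158 and 236 CPM for ENSDARG00000076833. The first copy was present in both tissues and higher in every heart tube library; the second was near 0 in the heart tube.

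Genes with the smallest p-values on this side that belong to no list followed the same split. ponzr5, of a family of small cysteine-rich proteins, measured 358 and 336 CPM in the pericardium libraries and 0.718, 0.691 and 1.303 CPM in the heart tube libraries (-8.59 ± 0.56; edgeR adjusted p = 2.64e-05). tlcd1, a membrane protein with a lipid-sensing domain, measured 22.4 and 33.2 CPM in the pericardium libraries and 0, 0 and 0 CPM in the heart tube libraries and was at least 135-fold lower in the heart tube. vgll4l, a cofactor of TEAD transcription factors, measured 121 and 95.3 CPM in the pericardium libraries and 0.608, 0.622 and 1.22 CPM in the heart tube libraries. All 3 separated the tissues without overlap. The cytoskeletal genes actb1 (1446 ± 696 against 8078 ± 669 CPM), actb2 (2281 ± 654 against 7382 ± 135 CPM), the actin-binding profilin pfn1 (953 ± 173 against 15365 ± 1196 CPM) and the thymosin gene tmsb1 (67.6 ± 77.5 against 4859 ± 1249.6 CPM), which sequesters actin monomers, had some of the largest CPM differences. So did the nuclear noncoding RNA malat1, at 75224 and 87895 CPM in the pericardium libraries and 31028, 29848 and 29096 CPM in the heart tube libraries (-1.44 ± 0.39; edgeR adjusted p = 0.0174); its call was lost when any 1 of the 5 libraries was left out, and that of actb2 without pericardium library 1.

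Collagens were higher in the pericardium in 28 of 42 tested cases and in the heart tube in 1, and 20 were called without either pericardium library. They took 0.989 and 0.657% of counts in the pericardium and 0.0686 to 0.0872% in the heart tube. COL1A2, a chain of the main fibrillar collagen, measured 1798 and 1287 CPM in the pericardium libraries and 53.1, 67.6 and 70.5 CPM in the heart tube libraries (-4.60 ± 0.50; edgeR adjusted p = 0.000115). col7a1, the anchoring fibril of the skin basement membrane, measured 57.7 and 68.3 CPM in the pericardium libraries and 0.331, 0 and 0.0815 CPM in the heart tube libraries (-8.63 ± 0.99; edgeR adjusted p = 0.000208). The pericardium libraries lay above every heart tube library for both. The fibril-associated COL12A1 (ENSDARG00000078322) averaged 8.83 ± 4.26 against 321 ± 37.4 CPM, the hemidesmosomal col17a1a 0.179 ± 0.145 against 34.2 ± 0.0312 CPM, and COL2A1 (ENSDARG00000011407), best known from cartilage, 10.18 ± 3.43 against 382 ± 8.35 CPM. Basement membrane collagens were divided: col4a5 (9.32 ± 3.09 against 143 ± 1.55 CPM) and col4a6 (45.01 ± 19.5 against 177 ± 4.05 CPM) were higher in the pericardium, while COL4A1, of vessel and general basement membranes, was higher in the heart tube (14.1 ± 4.43 against 2.66 ± 0.203 CPM), a call lost without either pericardium library.

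Among other matrix genes, 19 of 60 tested (31.7%) were higher in the pericardium, against 16.1% of all genes. In the heart tube 8 (13.3%) were higher, near the 11% of all genes. Without pericardium library 2 fewer were called in the heart tube. The fibronectin gene FN1 (ENSDARG00000006526) measured 2555 and 4037 CPM in the pericardium libraries and 26.1, 7.804 and 24.9 CPM in the heart tube libraries (-7.39 ± 1.07; edgeR adjusted p = 0.000917). TGFBI, a secreted adhesion protein, measured 118 and 152 CPM in the pericardium libraries and 5.69, 6.63 and 5.95 CPM in the heart tube libraries, and mmp30, a metalloproteinase, 59.7 and 42.5 CPM in the pericardium libraries and 0.0552, 0 and 0.0815 CPM in the heart tube libraries. Matricellular and small leucine-rich proteins of connective tissue followed: THBS1 (ENSDARG00000010785; 26.2 ± 7.92 against 376 ± 46.9 CPM), SPARC (264 ± 69.3 against 1134 ± 127 CPM), LUM (12.7 ± 12.4 against 484 ± 101 CPM) and DCN (18.04 ± 10.6 against 177 ± 85.7 CPM). The heart tube held more of several laminin chains and their partners, namely LAMB2 (38.3 ± 11.5 against 0.8299 ± 0.314 CPM), lama4 (45.7 ± 17.3 against 5.64 ± 0.252 CPM), the linker nidogen NID1 (ENSDARG00000103129; 175 ± 21.6 against 18.7 ± 13.9 CPM) and agrin, AGRN (235 ± 3.36 against 91.9 ± 12.6 CPM). Of 32 tested genes of fibroblasts and mesenchyme, 11 were higher in the pericardium, among them thy1, a surface glycoprotein (11.7 ± 3.203 against 992 ± 71.7 CPM), and the chemokine CXCL12 (2.69 ± 1.01 against 34.2 ± 18.3 CPM), and 6 in the heart tube, among them twist1b, a mesenchymal factor (87.3 ± 23.6 against 7.34 ± 5.35 CPM). The heart count was 1 without pericardium library 2.

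Mesothelial and proepicardial markers were divided between the tissues. Of 37 tested members, 10 (27%) were higher in the pericardium and 8 (21.6%) in the heart tube, with a median log2 fold change of -0.12. Both shares lay above the 16.1% and 11% of all genes. On the pericardium side stood BNC1, a zinc-finger factor of mesothelium and skin (1.93, 0.553 and 0.978 against 14.3 and 17.4 CPM), the mesodermal factor OSR1 (0.994, 0.553 and 2.12 against 22.2 and 9.12 CPM), the lubricating proteoglycan prg4b (0.276, 0 and 0 against 10.9 and 15.5 CPM) and the retinol acyltransferase LRAT (0.387, 0 and 0.815 against 156 and 156 CPM). On the heart side stood podxl, a sialomucin of mesothelial and other surfaces (144, 206 and 209 against 9.97 and 15.4 CPM), tmem88b (152, 96.7 and 95.6 against 3.61 and 3.04 CPM), ALCAM, an adhesion molecule of the myocardium and epicardium (337, 509 and 368 against 35.6 and 31.3 CPM), and ALDH1A2, which makes retinoic acid (13.1, 100.4 and 45.4 against 6.56 and 4.86 CPM). Each of these genes separated the tissues without overlap. Several are known outside mesothelium too, so the list does not identify a cell type here.

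**Figure D4:**
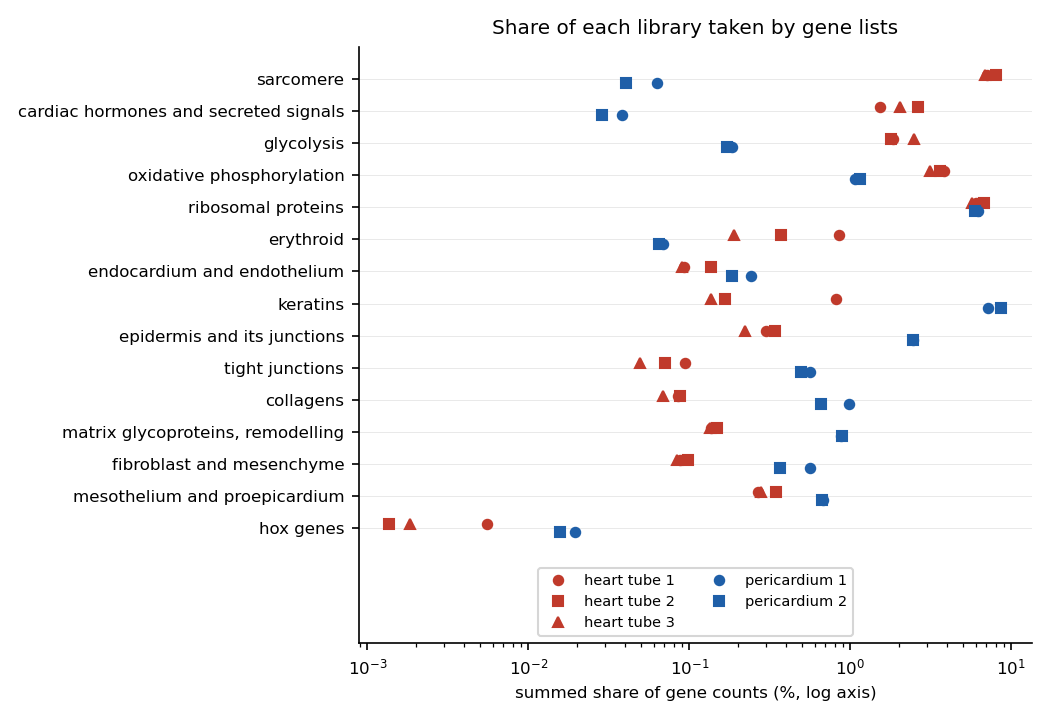
Summed share of gene counts, in percent on a log axis, of 15 gene lists in each of the 5 libraries. Sarcomere genes take 6.85 to 8.09% of the heart tube libraries and under 0.1% of the pericardium libraries, keratins 7.21 and 8.69% of the pericardium libraries, and the ribosomal proteins a like share in all 5.

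Retinoic acid genes and Hox genes added positional and signalling differences. Of 30 tested retinoic acid genes, 9 (30%) were higher in the pericardium and 2 (6.67%) in the heart tube. The shares of all genes were 16.1% and 11%. The 2 in the heart tube were ALDH1A2 and the retinal reductase DHRS3 (ENSDARG00000044803, 52.4 ± 10.5 against 14.7 ± 1.94 CPM). The degrading enzyme CYP26A1 measured 65.4 and 79.2 CPM in the pericardium libraries and 0.552, 0.138 and 0.489 CPM in the heart tube libraries (-7.48 ± 0.78; edgeR adjusted p = 0.000101). The plasma retinol carrier RBP4 measured 2116 and 2499 CPM in the pericardium libraries and 4.36, 1.45 and 1.71 CPM in the heart tube libraries (-9.83 ± 1.34; edgeR adjusted p = 0.000796). The groups did not overlap for either gene. Of 29 tested Hox genes, the homeobox factors of body axis position, 15 were higher in the pericardium and 0 in the heart tube; without either pericardium library, or without heart tube library 2, 9 were called. The pericardium share of the Hox genes was 51.7%, against 16.1% of all genes. Of the 29 tested, 10 had 0 counts in every library of a tissue, in the heart tube for all but HOXA5. These could be called in only 1 direction, so the tally is partly fixed by the filter. Some calls rest on few counts, such as hoxb1a (22 and 1 in the pericardium libraries) and HOXC8 (6 and 18). The median of -3.71 over the tested Hox genes became -2.18 with genes at 0 in a tissue at their bound. HOXC6 (ENSDARG00000070343) measured 11.9 and 22.1 CPM in the pericardium libraries and 0, 0 and 0 CPM in the heart tube libraries and was at least 82.8-fold lower in the heart tube, and HOXD4 measured 37.1 and 30.998 CPM in the pericardium libraries and 2.596, 0.0691 and 0.326 CPM in the heart tube libraries. Members of the anterior and posterior parts of the clusters were both present, from hoxb1b (0.477 ± 0.306 against 6.34 ± 2.09 CPM) to hoxa13b (0 ± 0 against 4.51 ± 2.199 CPM). The part of adjoining tissue in these values was not tested.

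Wnt genes passed in the pericardium at 23% of those tested, above the 16.1% of all genes. In the heart tube the share was 9.84%, below the 11% of all genes. Of 61 tested, 14 were higher in the pericardium and 6 in the heart tube. The ligands that passed were all on the pericardium side, among them WNT7B (0.892 ± 1.28 against 18.3 ± 0.386 CPM), WNT9A (0.0875 ± 0.107 against 6.16 ± 0.853 CPM) and the WNT7A copy ENSDARG00000044827 (3.38 ± 2.38 against 26.4 ± 0.9295 CPM). Secreted inhibitors were found on both sides. In the heart tube dkk1b (122 ± 42.2 against 15.9 ± 0.161 CPM), notum1b (31.5 ± 5.28 against 3.22 ± 1.09 CPM) and WIF1 (29.5 ± 5.09 against 10.09 ± 0.756 CPM) were higher. In the pericardium it was SFRP1 (ENSDARG00000057678, 0.138 ± 0.173 against 3.71 ± 3.47 CPM). The Dickkopf receptor KREMEN1, not a secreted protein, was also higher in the pericardium (6.96 ± 3.802 against 76.01 ± 35.1 CPM). The pericardium count was 9 without heart tube library 2, 6 without pericardium library 1 and 3 without pericardium library 2. The heart count was 3 and 2 without the pericardium libraries and 10 and 12 without proepicardium libraries 1 and 2.

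In the BMP and TGF-beta list, 17 of 65 tested genes (26.2%) were higher in the heart tube and 6 (9.23%) in the pericardium. The shares of all genes were 11% and 16.1%. BMP4, a ligand, measured 363, 512 and 630.1 CPM in the heart tube libraries and 19.7 and 15.8 CPM in the pericardium libraries (4.82 ± 0.71; edgeR adjusted p = 0.000589), and BMP5 averaged 149.5 ± 8.22 against 15.05 ± 1.44 CPM. id2b, an inhibitor of basic helix-loop-helix factors that BMP signals induce, measured 723, 765 and 975 CPM in the heart tube libraries and 28.1 and 12.4 CPM in the pericardium libraries, and ID4 averaged 208 ± 104 against 11.6 ± 2.15 CPM. The tissues did not overlap for any of these 4 genes. The related genes ID1 (234 ± 15.1 against 183 ± 3.995 CPM), ID2 (249.6 ± 53.2 against 291 ± 30.99 CPM) and ID3 (79.8 ± 24.9 against 94.5 ± 1.39 CPM) did not pass (edgeR adjusted p = 0.589, 0.687 and 0.663). Signal transducers and brakes were higher as well, namely SMAD1 (42.5 ± 25.6 against 9.595 ± 1.17 CPM), smad9 (85.5 ± 25.8 against 5.99 ± 1.098 CPM), the inhibitory copy SMAD6 (ENSDARG00000053209; 95.8 ± 4.23 against 17.9 ± 5.23 CPM) and the secreted antagonist nog2 (43.7 ± 11.6 against 1.43 ± 0.184 CPM). The pericardium held more of the ligand BMP2 (ENSDARG00000041430; 4.14 ± 1.84 against 16.1 ± 2.52 CPM), of the receptors acvrl1 (1.82 ± 0.434 against 26.9 ± 0.386 CPM) and ACVR2A (24.7 ± 7.25 against 114 ± 3.23 CPM), and of the antagonist FST (ENSDARG00000057992; 0.339 ± 0.207 against 6.13 ± 1.18 CPM). The heart count was 11 without pericardium library 2, and the pericardium count 2 without pericardium library 1.

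Adhesion receptors passed on both sides. Of 51 tested integrins, cadherins and their linkers, 11 were higher in the heart tube and 14 in the pericardium; without heart tube library 2, or pericardium library 1 or 2, the heart count was 7, 5 or 4. CDH2, the cadherin of heart muscle junctions, measured 79.2, 238 and 251 CPM in the heart tube libraries and 12.98 and 11.7 CPM in the pericardium libraries (3.94 ± 0.76; edgeR adjusted p = 0.00325), opposite to cdh1 (-2.96 ± 0.42; edgeR adjusted p = 0.00052). The fibronectin receptor ITGA5 averaged 67.7 ± 17.6 against 19.3 ± 3.14 CPM and the integrin-linked kinase ILK 108 ± 31.9 against 33.96 ± 7.87 CPM. Epithelial integrins lay on the other side, with itga6b (3.32 ± 2.61 against 133 ± 34.8 CPM), ITGB6 (0.559 ± 0.114 against 7.41 ± 0.6498 CPM) and itga3a (0.208 ± 0.314 against 6.66 ± 0.0806 CPM). The adhesion molecule alcamb was higher in the pericardium (34.1 ± 19.7 against 219.9 ± 48.9 CPM), opposite to the ALCAM gene named above.

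The smallest p-value of the whole comparison was that of cd9a, a member of the caveolar and tetraspanin list. cd9a, a tetraspanin, measured 551, 461 and 776 CPM in the heart tube libraries and 2.004 and 1.997 CPM in the pericardium libraries (8.21 ± 0.49; edgeR adjusted p = 2.11e-05). Its paralog cd9b measured 674 and 1132 CPM in the pericardium libraries and 47.6, 0.691 and 4.24 CPM in the heart tube libraries (-5.68 ± 1.36; edgeR adjusted p = 0.0131), with heart tube library 1 again the highest of the 3; the cd9b call was lost without either pericardium library. Of 28 tested members of that list, 10 were higher in the heart tube and 9 in the pericardium, and without either pericardium library 6 or 4 and 3 or 4 passed. The muscle caveolin cav3 averaged 24.2 ± 9.63 against 3.23 ± 1.38 CPM, whereas CAV1 (94.2 ± 36.98 against 255 ± 51.2 CPM) and CAV2 (28.2 ± 6.93 against 257 ± 15.2 CPM), of other cell types, were higher in the pericardium. The caveolar coat gene CAVIN1 was again split by copy, ENSDARG00000076411 averaging 20.5 ± 9.83 against 0.162 ± 0.0165 CPM and ENSDARG00000059362 3.31 ± 1.23 against 30.2 ± 2.17 CPM.

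Guidance cues passed on both sides at shares near the background. Of 60 tested, 8 were higher in the heart tube and 11 in the pericardium. SLIT3 (75.04 ± 20.4 against 13.2 ± 1.43 CPM) and SEMA3F (ENSDARG00000055373; 50.8 ± 12.6 against 13.6 ± 2.57 CPM), both secreted repellents, were on the heart side, and SEMA3D (0.0962 ± 0.104 against 3.13 ± 0.737 CPM) and SEMA5A (8.104 ± 4.06 against 20.8 ± 5.37 CPM) on the pericardium side. Without either pericardium library 2 and 3 genes were called on the respective sides, and 5 on the pericardium side without heart tube library 2 or 3. Few cell cycle genes passed: of 73 tested cell cycle genes, 1 was higher in the heart tube, the cyclin CCND2 (ENSDARG00000051748; 137 ± 43.1 against 33.2 ± 5.004 CPM), and 1 in the pericardium, the ribonucleotide reductase subunit RRM2 (ENSDARG00000078069; 6.69 ± 4.47 against 34.96 ± 26.2 CPM), with a median log2 fold change of -0.17. A p that misses the threshold does not show that cycling was equal.

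Some paralogs of one gene were divided between the tissues. Among 379 pairs of tested genes whose symbols differ only in a final a or b, 9 were called in opposite directions, 52 in the same direction, 128 with 1 gene called and 190 with none. Among 919 pairs of tested genes that share a symbol in the name table, 37 were called in opposite directions and 83 in the same direction. Of all tested genes 11% were called higher in the heart tube and 16.1% in the pericardium, so unrelated pairs would also include opposite calls. Their share was not computed, so these counts do not show that paralogs were divided more often than unrelated genes. Without either pericardium library no a/b pair was called in opposite directions, and 11 or 10 pairs of shared symbol were, so the pairs below are read from their values. One pair was that of ARVCF, a catenin of cadherin junctions: ENSDARG00000061688 measured 359, 354 and 236 CPM in the heart tube libraries and 7.01 and 3.39 CPM in the pericardium libraries, and ENSDARG00000074329 0, 0 and 0 CPM in the heart tube libraries and 2.405 and 1.39 CPM in the pericardium libraries. The first copy was abundant in all 3 heart tube libraries and the second was counted only in the pericardium. igf2a and igf2b, insulin-like growth factors, averaged 0.987 ± 0.873 against 80.4 ± 9.34 CPM and 82.4 ± 25.2 against 12.8 ± 3.498 CPM. The tubulin regulator STMN1 averaged 14.6 ± 4.89 against 1.63 ± 0.394 CPM for ENSDARG00000033655 and 101 ± 28.2 against 803 ± 148 CPM for ENSDARG00000004169. The actin-severing gelsolin gene GSN averaged 200.4 ± 51.3 against 36.8 ± 1.62 CPM for ENSDARG00000011459 and 4.59 ± 6.56 against 168 ± 24.2 CPM for ENSDARG00000045262. KLHL40, an adaptor of muscle protein stability, averaged 19.8 ± 6.89 against 0.974 ± 0.394 CPM for ENSDARG00000039052 and 0 ± 0 against 0.317 ± 0.165 CPM for ENSDARG00000019125, the latter close to the detection floor. Heart tube library 1 was the highest of the 3 for the pericardial GSN copy.

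**Figure D5:**
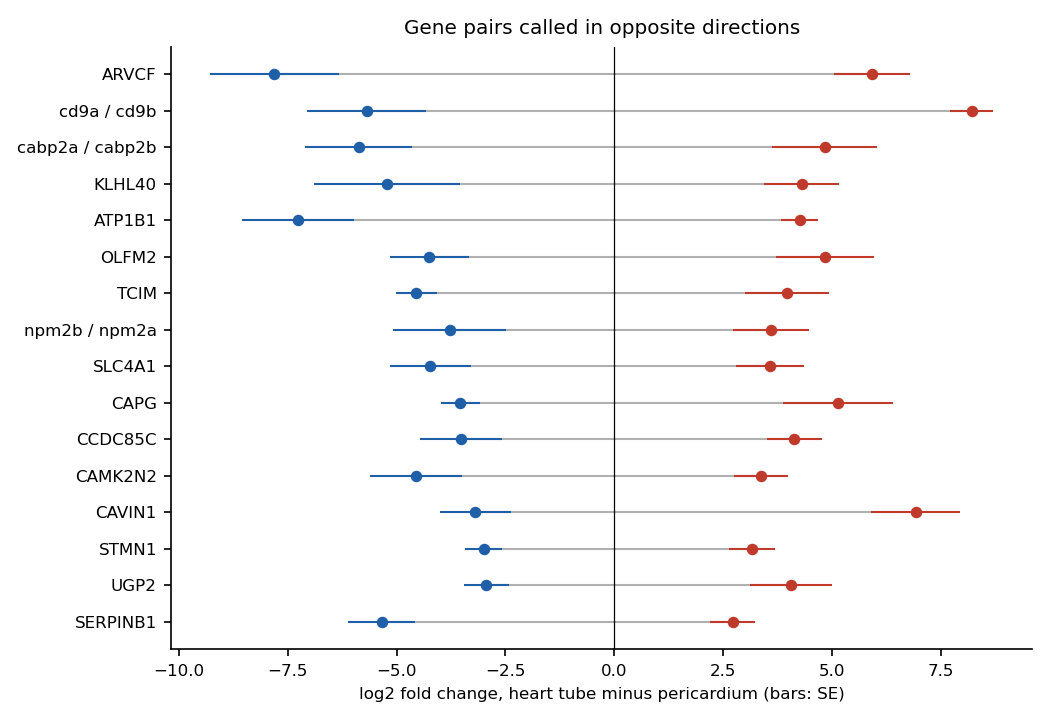
Log2 fold change (heart tube minus pericardium) with its standard error for 16 pairs of paralogs called in opposite directions, ordered by the smaller absolute change of the pair. The cd9a and cd9b values are 8.21 and -5.68; for a copy at 0 counts in every heart tube library, such as the second ARVCF copy, the point is a fitted value and not a measured fold.

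Several gene families named by a shared stem leaned to the pericardium. Those named below lie towards the ends of all stems ordered by median log2 fold change, so their counts describe these libraries only. The 5 on the pericardium side had 41.2 to 75% of tested members higher there, against 16.1% of all genes. Of 51 tested cytochrome P450 genes (cyp), 21 were higher in the pericardium and 0 in the heart tube, and 13 were called without either pericardium library. cyp27a1.1, of sterol metabolism, averaged 0.569 ± 0.252 against 22.5 ± 14.9 CPM. Of 12 tested cytosolic sulfotransferases (sult), which conjugate hormones and xenobiotics, 9 were higher in the pericardium, also without either pericardium library; sult2st1 measured 380.3 and 467 CPM in the pericardium libraries and 4.92, 10.15 and 13.8 CPM in the heart tube libraries and sult1st4 37.02 and 24.1 CPM in the pericardium libraries and 0, 0.0691 and 0 CPM in the heart tube libraries. Both were low in every heart tube library compared with the pericardium. Of 21 tested major histocompatibility genes (mhc), which present antigens, 9 were higher in the pericardium and 0 in the heart tube, and 5 without either pericardium library. mhc1lba measured 12.3 and 14.4 CPM in the pericardium libraries and 0, 0 and 0 CPM in the heart tube libraries, at least 64.9-fold lower in the heart tube. The calpains, calcium-dependent proteases (capn), had 8 of 13 higher in the pericardium (5 without pericardium library 1). Of 14 bloodthirsty-related genes (btr) 9 passed there and 1 in the heart tube, with 5 on the pericardium side without heart tube library 3 or without either pericardium library. On the heart side, 10 of 27 tetraspanins (tspan) passed (37%, against 11% of all genes), and fewer without a pericardium library. In the pericardium 4 passed (14.8%), near the 16.1% of all genes.

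Markers of tissues that lie near the heart were looked at in the same libraries. The shares of all genes to set beside these lists were 11% in the heart tube and 16.1% in the pericardium. Of 31 tested skeletal muscle genes, 6 (19.4%) were higher in the heart tube and 1 (3.23%) in the pericardium. The list took 0.405 to 0.584% of heart tube counts and 0.0353 and 0.0736% of pericardium counts. The 6 included genes that embryonic heart also expresses, such as ckma and an ACTA1 copy (ENSDARG00000055618; 2618 ± 1247 against 12.6 ± 5.51 CPM). Of 24 tested liver and yolk genes, 5 (20.8%) were higher in the heart tube and 4 (16.7%) in the pericardium, the latter near the share of all genes. The apolipoprotein gene apoeb, which larval skin also transcribes, averaged 14.5 ± 6.13 against 1578 ± 361 CPM. With RBP4 it made up most of the list's share of 0.386 and 0.409% in the pericardium. In the heart tube the list took 0.0196 to 0.0450%. No liver gene was called in the heart tube without either pericardium library. Of 14 tested cartilage genes 2 (14.3%) were higher in the heart tube and 5 (35.7%) in the pericardium. Of 21 neural and glial genes 6 (28.6%) were higher in the heart tube and 2 (9.52%) in the pericardium. Of 12 motile cilia genes 2 (16.7%) passed on each side, in the pericardium near the share of all genes. Without pericardium library 1 or 2 the neural count in the heart tube was 1 or 2, the cartilage count in the pericardium 1 or 2, and the cilia count in the heart tube 0. ELAVL3, an RNA-binding protein of young neurons, averaged 10.5 ± 8.23 against 0.751 ± 0.779 CPM. None of 11 tested pigment cell genes passed in edgeR. XDH, among them, had 0 counts in all 5 libraries and passed the filter only through the proepicardium. Without heart tube library 3, 7 pigment cell genes were higher in the pericardium. That library held 0.0330% of its counts in pigment cell genes, against 0.00223 and 0.000876% in heart tube libraries 1 and 2 and 0.0287 and 0.0171% in the pericardium libraries. DCT, a melanin synthesis enzyme, measured 0.221, 0 and 44.9 CPM in the heart tube libraries and 29.4 and 25.7 CPM in the pericardium libraries. The part of such neighbouring cells in the differences given above was not tested, and epidermal content and tissue cannot be told apart in this design.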

How the data were processed

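The authors deposited raw counts per Ensembl gene, whole numbers with no normalisation, and a second table of log2 values whose scaling is not given in the sources used here. The submitters' processing notes name CASAVA 1.8, fastp, STAR, featureCounts and DESeq2 and the build GRCz11, without their roles; whether the counting used strand is not given in the sources used here. From the deposited counts, genes were filtered (filterByExpr, minimum count 10, minimum total 15), scaled by TMM and tested with edgeR 4.0.16 (R 4.3.3; quasi-likelihood, robust; tissue as the only term, all 9 libraries; common coefficient of variation 0.528), and p-values were adjusted over all 17003 genes. The procedure was tested on simulated counts. Construct rows stayed out of library sizes and tests.

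Symbols came from a name table that covered 29201 of 32520 identifiers; of 1514 list symbols, 64 had no match and 423 matched only by the stem without its paralog letter, so that all copies of the gene entered the list. Genes named are the 10 per direction with the smallest p (and 10 CPM or more on average where higher), the 10 with the largest CPM difference, members of 36 gene lists, paralog pairs and family members. Pairs of shared symbol were added after the name table was seen. The members and lists were chosen with earlier results of these data known. No promoter or protein sequences were used here. Alternatives covered scaling, filter, test (DESeq2 1.42.0; limma 3.58.1, with voom or on the deposited log2 table), libraries left out and a replicate block. A few list members are counted but not reported here by name.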

Additional observations from a re-analysis of the deposited data

Results flagged for a closer look

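Reporter sequences were counted outside the gene comparison. The row named mCherry reached 4042 counts in a heart tube library, while the pericardium libraries held 1 and 0. The row named dsRed reached 221 counts in a heart tube library, and the pericardium libraries held 73 and 35. The genotype names a red protein under the myl7 promoter, and which of these rows reads it is not given in the sources used here. A row named Egfp_Kozak_3_UTR held 0 counts in every heart tube and pericardium library. Whether that row reads the eGFP of the genotype is not given either.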

How the results depend on the processing

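No call named above changed sign under any of the 20 alternatives. Of 756 list members and paralogs called, 397 passed under every alternative in which they were tested, 155 were lost only without 1 of the pericardium libraries and 204 under another alternative. All 4613 calls gave 4599 with an absolute log2 change above 1 asked in addition. Limma-voom called 6926 genes, 3004 of them higher in the heart tube, and DESeq2 5559; a mean count of at least 50 left 1824 calls in the pericardium, since fewer genes were tested. Leaving out 1 library at a time gave 2237 to 4745 calls, 754 to 2228 in the heart tube and 1428 to 2730 in the pericardium, with the lowest counts where 1 pericardium library remained; that lone library was assumed to vary like the other tissues. Limma-voom called 30 a/b paralog pairs in opposite directions and DESeq2 18, against 9 with edgeR. Deviations of same-numbered libraries correlated at -0.018 and 0.025 for the heart tube and pericardium pairs. Same-numbered pairs with the proepicardium gave 0.037, 0.025 and 0.060 for the heart tube and 0.083 and 0.13 for the pericardium. With 2 pericardium libraries the deviations mirror each other, so this check cannot show whether same-numbered libraries share a clutch or day. With the replicate number as a block, 3658 genes were called. Zero counts limit folds at 3 counts per library. Sequence comparisons of promoters and proteins were not run.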
